A study of Homo sapiens with 6 samples.

Results

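The 10 genes described here encode poly(ADP-ribose) polymerases, the enzyme that removes their product, and the factors that repair single-strand DNA breaks. They are PARP1, PARP2, PARP3, PARG, TNKS, TNKS2, XRCC1, LIG3, POLB and APEX1. They were taken by gene name from the deposited table of 29185 genes, and all 10 had a row with reads in every library. SKOV3 is an ovarian cancer line kept in culture. The study compared SKOV3 cells carrying a short hairpin RNA against the transcription factor KLF5 (sh-KLF5) with cells carrying a control hairpin (sh-NC, genotype WT in the labels), and mRNA was sequenced from 3 libraries of each group. Both lines were made by stable pLKO vector transduction and puromycin selection. The labels list no drug treatment. The labels do not say whether the libraries of a group came from separate cultures, so p-values measure the spread between these libraries, which may be technical.

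PARP1, PARP2 and PARP3 bind broken DNA and use NAD+ to attach ADP-ribose to proteins at the break. PARG takes the chains off again. XRCC1 is the scaffold drawn to PARP1-made chains, and it holds DNA ligase III (LIG3), which seals the nick. In base excision repair a glycosylase removes a damaged base, APEX1 cuts the strand at the empty site, and DNA polymerase beta (POLB) fills the gap. The tankyrases TNKS and TNKS2 make the same polymer on telomere and Wnt pathway proteins. PARP1 and PARP2 are the targets of olaparib and the other PARP inhibitors used in ovarian cancer.

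The 6 libraries held between 15852319 and 17543896 reads assigned to genes. KLF5 had 4371, 4425 and 4494 normalized counts in sh-NC and 1745, 1440 and 1436 in sh-KLF5, which left 34.8% of the sh-NC mean (limma adjusted p = 2.47e-07). The epithelial marker list was present, with summed normalized counts of 53980 to 66015 in sh-NC and 28330 to 38823 in sh-KLF5. KRT7 and KRT8 had by far the highest values (means of 32104 and 21816 in sh-NC). Of the 7 genes, 4 passed as lower (KRT7, KRT8, KRT18 and MUC1), beside 6.85% of all tested genes. ERBB2 was lower without passing (limma adjusted p = 0.124), and EPCAM had a log2 fold change of -0.03. KRT19, at 17 or fewer reads per library, had a higher mean in sh-KLF5 (11.6 against 6.19). Of 8 markers of blood, endothelium and fibroblasts, 7 had a row, and neither PTPRC nor LYZ exceeded 3 reads in any library. The sum of those 7 was 374 to 533 in sh-NC and 145 to 287 in sh-KLF5, and DCN fell from a mean of 291 to 82.3 (limma adjusted p = 9.69e-05), the 1 gene of this list that passed. COL1A1 and VWF had higher means in sh-KLF5 (80.7 against 62.4 and 7.63 against 5.65), with overlapping groups. The part of these shifts in the results below was not tested. sh-KLF5 library 1 stood apart from the others. It held the lowest of the 6 values for 25.6% of the tested genes and the highest for 26.9%, against 12.1% to 17.0% and 13.3% to 17.0% in the other libraries.

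KLF5 silencing was accompanied by a fall of PARG and a rise of PARP3, and the other 8 genes did not pass the test. At an adjusted p under 0.05, 2 of the 10 genes passed, 1 higher and 1 lower, where 12.9% of the 15803 tested genes passed, 6.04% higher and 6.85% lower. None of the 10 also changed by more than 1 on the log2 scale, a threshold that 5.28% of tested genes met. The median log2 fold change of the 10 was 0.0064 beside -0.0023 over all tested genes, and the median size without sign was 0.11 beside 0.22. The tested genes were not matched to the 10 by read count. Whether the 10 changed less than genes of similar count was not tested. The 95% intervals of 9 genes lay between -1 and 1, and that of PARP3 reached 1.01. The values of the groups did not overlap for 3 genes (PARG, PARP3 and POLB), and such separation was seen in 31.3% of tested genes. In bulk RNA, fewer cells with a transcript and less of it per cell cannot be told apart.

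**Figure D1:**
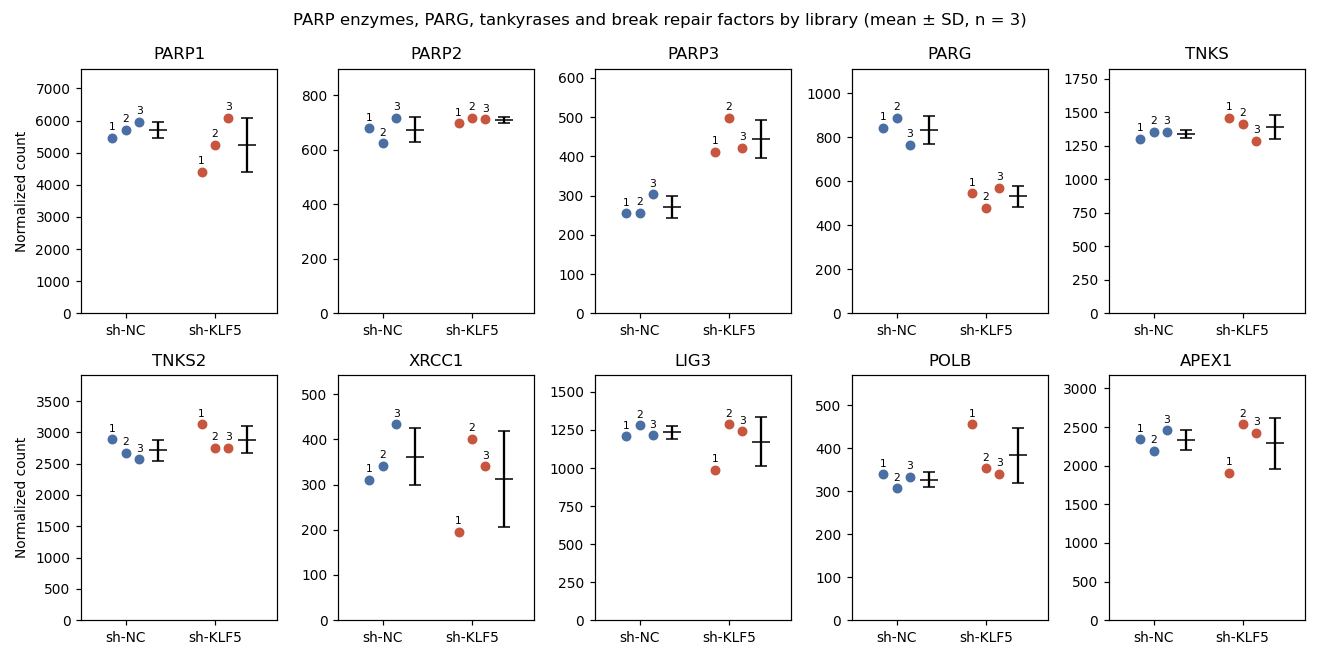
Normalized count (y axis, from 0) of each of the 10 genes in each library, numbered by replicate, for sh-NC (blue) and sh-KLF5 (red), with the group mean ± SD (n = 3) in black. PARG sits at 764 to 889 in sh-NC and 478 to 570 in sh-KLF5, PARP3 at 254 to 303 and 411 to 499, and sh-KLF5 library 1 is the lowest point for PARP1, XRCC1, LIG3 and APEX1.

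**Figure D2:**
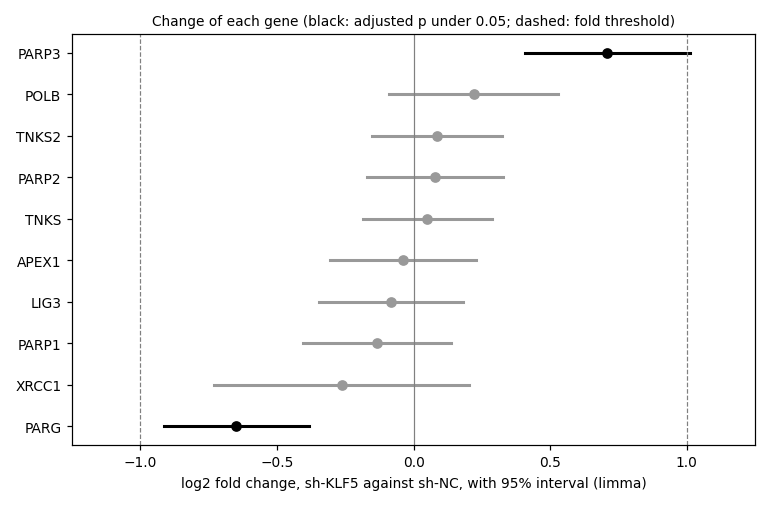
Log2 fold change (x axis, sh-KLF5 against sh-NC, limma) of the 10 genes with 95% intervals. PARG lies at -0.65 and PARP3 at 0.71 with intervals clear of 0, while the intervals of the other 8 genes include 0.

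PARG, poly(ADP-ribose) glycohydrolase, was the gene of the set that fell. It lies on chromosome 10 at 49818279 to 49970203 on the minus strand (hg38), and its 7 annotated transcripts cover 5129 exonic bases. Normalized counts were 843, 889 and 764 in sh-NC and 544, 478 and 570 in sh-KLF5. Every sh-KLF5 library lay below every sh-NC library. The mean went from 832 ± 63.1 to 531 ± 47.1 (SD, n = 3), which is 63.8% of the sh-NC level. The log2 fold change was -0.65 (SE 0.12, 95% interval -0.91 to -0.38, limma adjusted p = 0.00194). Without sh-KLF5 library 1 it was -0.67 (limma adjusted p = 0.000258), the smallest adjusted p with 1 library left out. The largest was 0.0244 (limma), without sh-NC library 2, where the log2 fold change was -0.60. Of the 50-base stretches in PARG exons, 22.4% also occur in its partial copy PARGP1, so that part of the reads cannot be placed with certainty. PARGP1 had 119, 119 and 72.2 normalized counts in sh-NC and 81.5, 114 and 112 in sh-KLF5, with a log2 fold change of 0.0063 (limma adjusted p = 0.991). With the counts of both summed, the log2 fold change was -0.56 (limma adjusted p = 0.00543). On the other strand, TIMM23B overlaps 0.721% of PARG exonic bases, and the strand setting of the counting was not stated.

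PARP3, which acts with the end-joining machinery at DNA breaks, was the gene of the set that rose. It lies on chromosome 3 at 51942345 to 51948867 on the plus strand. Normalized counts were 254, 255 and 303 in sh-NC and 411, 499 and 422 in sh-KLF5. The lowest sh-KLF5 value exceeded the highest sh-NC value. The mean rose from 271 ± 28.2 to 443.9 ± 47.9 (SD, n = 3), or 1.64-fold. The log2 fold change was 0.71 (SE 0.14, 95% interval 0.41 to 1.01, limma adjusted p = 0.00278). Leaving out sh-KLF5 library 1 gave 0.76 (limma adjusted p = 0.000458), the smallest adjusted p with 1 library left out. The largest was 0.0245 (limma), without sh-NC library 2, where the log2 fold change was 0.67. No other gene overlaps its exons, and none of its 50-base stretches occurs in another gene.

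PARP1, the main source of poly(ADP-ribose) after DNA damage, had 5455, 5709 and 5967 normalized counts in sh-NC and 4401, 5238 and 6096 in sh-KLF5. The groups overlapped, and both the lowest and the highest of the 6 values were in sh-KLF5. The mean went from 5711 ± 256 to 5245 ± 848 (SD, n = 3), with a log2 fold change of -0.13 (95% interval -0.40 to 0.14, limma adjusted p = 0.549). This value was -0.014 without sh-KLF5 library 1 (limma adjusted p = 0.946) and -0.25 without sh-KLF5 library 3 (limma adjusted p = 0.219). PARP2, which shares the damage-dependent role of PARP1, had 679, 624 and 716 normalized counts in sh-NC and 697, 718 and 712 in sh-KLF5. Its groups overlapped, with an SD of 46.5 in sh-NC and 10.7 in sh-KLF5. The log2 fold change was 0.08 (95% interval -0.17 to 0.33, limma adjusted p = 0.725). It was 0.024 without sh-NC library 2 and 0.12 without sh-NC library 3. Among 4016 protein-coding genes with a mean of at least 1000 normalized counts, CASC3, HNRNPL and AP3D1 followed PARP1 most closely over the 6 libraries. The root-mean-square distances of their log2 values from those of PARP1, each relative to its own sh-NC mean, were 0.0074, 0.0153 and 0.0155. These are the smallest of 4016 distances over only 6 libraries, so small values follow from the choice. Shared regulation was not tested.

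The sequences before the transcription starts of PARG, PARP3 and PARP1 are shown because PARG and PARP3 moved in opposite directions when a promoter-binding factor was silenced, while PARP1 did not pass the test. Each is the 250 bases before the RefSeq start (GRCh38.p14), printed 5′ to 3′ on the strand of the gene. Capitals mark matches on either strand to CCNCNCCC, a box bound by the KLF family. The PARG window is chr10:49942028-49942277 (minus strand), the PARP3 window chr3:51942113-51942362 (plus strand) and the PARP1 window chr1:226408094-226408343 (minus strand).
PARG: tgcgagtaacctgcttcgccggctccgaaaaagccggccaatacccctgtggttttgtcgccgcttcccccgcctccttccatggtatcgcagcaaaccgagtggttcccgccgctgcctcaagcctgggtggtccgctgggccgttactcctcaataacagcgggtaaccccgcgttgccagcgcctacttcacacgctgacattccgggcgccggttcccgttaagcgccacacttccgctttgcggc
PARP3: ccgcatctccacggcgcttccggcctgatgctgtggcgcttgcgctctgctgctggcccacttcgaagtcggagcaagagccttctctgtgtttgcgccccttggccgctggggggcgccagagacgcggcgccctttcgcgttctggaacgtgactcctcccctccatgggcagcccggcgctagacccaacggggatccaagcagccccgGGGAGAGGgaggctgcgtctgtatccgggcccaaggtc
PARP1: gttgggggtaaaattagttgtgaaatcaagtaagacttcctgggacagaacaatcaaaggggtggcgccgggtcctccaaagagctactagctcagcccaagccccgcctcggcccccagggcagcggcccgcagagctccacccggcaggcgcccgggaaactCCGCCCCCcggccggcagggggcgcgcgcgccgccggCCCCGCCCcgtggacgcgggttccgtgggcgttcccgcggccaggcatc
The PARG window held no match, the PARP3 window 1 and the PARP1 window 2. Of the 8 genes of the set matched in RefSeq, 5 held at least 1 match, and the same box occurred in 53.4% of 35116 promoter windows of this length. The GC box CCGCCC, which can overlap it, was counted on both strands as well and occurred 0 times in PARG, 0 times in PARP3 and 2 times in PARP1, with 42.6% of all windows holding it. GC content was 63.2%, 68.4% and 70.4% in that order. The RefSeq start of PARG, at 49942027, lies inside the gene span used by the deposited table, which begins at 49970203 on this strand, so other annotated starts of PARG were not examined. These letters are a description of the windows and were not tested for binding.

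To set the 3 DNA-damage-dependent PARPs side by side, counts per kb of exon were summed over PARP1, PARP2 and PARP3 in each library. PARP3 took 8.57%, 8.41% and 9.33% of that sum in sh-NC and 15.2%, 15.8% and 12.3% in sh-KLF5. PARP1 took 75.1%, 76.9% and 74.9% in sh-NC and 66.4%, 67.9% and 72.8% in sh-KLF5. Neither set of shares overlapped between groups. The mean PARP3 share was 8.77 ± 0.490% and 14.4 ± 1.85%, that of PARP1 75.6 ± 1.09% and 69.0 ± 3.34%, and that of PARP2 15.6 ± 0.834% and 16.5 ± 1.78% (SD, n = 3). The shares add to a fixed total, so a higher share of PARP3 lowers the others.

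**Figure D3:**
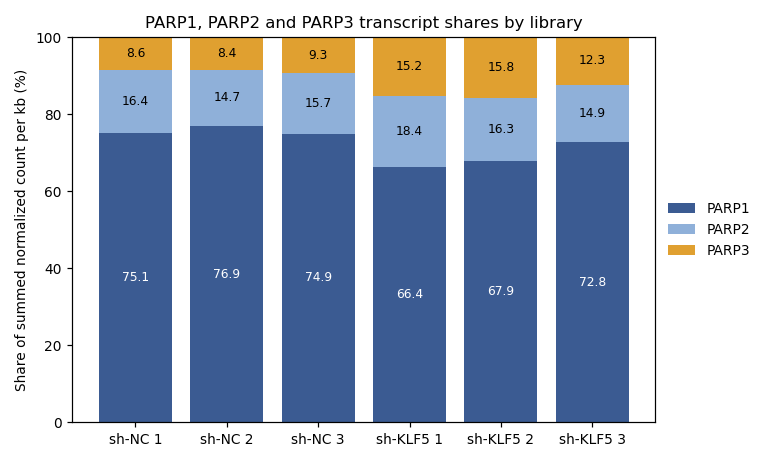
Share of PARP1, PARP2 and PARP3 (y axis, percent of their summed counts per kb of exon) in each of the 6 libraries (x axis). PARP3 holds 8.41% to 9.33% in sh-NC and 12.3% to 15.8% in sh-KLF5, and PARP1 is the main part of every bar.

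Neither tankyrase passed the test. TNKS had 1302, 1355 and 1354 normalized counts in sh-NC and 1460, 1411 and 1287 in sh-KLF5, a log2 fold change of 0.05 (95% interval -0.18 to 0.29, limma adjusted p = 0.820). TNKS2 had 2888, 2677 and 2567 in sh-NC and 3127, 2756 and 2755 in sh-KLF5, a log2 fold change of 0.09 (95% interval -0.15 to 0.32, limma adjusted p = 0.678). The groups overlapped for both genes. When 1 library was left out, TNKS ranged from 0.012 (without sh-KLF5 library 1) to 0.10 (without sh-KLF5 library 3), and TNKS2 from 0.025 (without sh-KLF5 library 1) to 0.13 (without sh-NC library 1).

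The 4 break repair factors did not pass the test, and the direction of 3 of them turned without sh-KLF5 library 1. XRCC1 had 310, 342 and 433 normalized counts in sh-NC and 195, 401 and 339.9 in sh-KLF5. It had the widest standard error of the 10 genes (0.22), and its log2 fold change of -0.26 had an interval from -0.73 to 0.20 (limma adjusted p = 0.491). LIG3 had 1208, 1281 and 1214 in sh-NC and 989.7, 1287 and 1242 in sh-KLF5, with a log2 fold change of -0.08 (95% interval -0.35 to 0.18, limma adjusted p = 0.723). APEX1 had 2343, 2196 and 2460 in sh-NC and 1906, 2534 and 2423 in sh-KLF5, with a log2 fold change of -0.04 (95% interval -0.30 to 0.23, limma adjusted p = 0.890). In all 3 genes the lowest of the 6 values was sh-KLF5 library 1, and without that library the log2 fold changes turned to 0.044, 0.035 and 0.089. That of APEX1 was also above 0, at 0.0015, without sh-NC library 3.

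POLB had 339.8, 306 and 333 normalized counts in sh-NC and 456, 353 and 341 in sh-KLF5. Its groups were separate only by a narrow margin, and the log2 fold change of 0.22 (95% interval -0.09 to 0.53) did not pass (limma adjusted p = 0.373). Without sh-KLF5 library 1, its highest value, the log2 fold change was 0.089. RFFL on the opposite strand covers 29.1% of LIG3 exonic bases, and its own log2 fold change was -0.23 (limma adjusted p = 0.390). Gene models without a row in the table overlap 24.0% of XRCC1 exonic bases. Reads of overlapping genes on opposite strands cannot be told apart where counting ignored strand, so XRCC1 and LIG3 carry this limit. L34079.1 covers 6.48% of XRCC1 exonic bases on the same strand, where counting by strand would not separate the reads either.

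Set in order by counts per kb of exon in sh-NC, APEX1 stood at 1237, PARP1 at 797 and TNKS2 at 440.3, each separate from the next. PARP2 at 164 and PARG at 162 overlapped between libraries. XRCC1 at 105, LIG3 at 95.5, TNKS at 94.2 and PARP3 at 92.5 overlapped each with its neighbour in the order, and POLB at 79.5 lay below PARP3. In sh-KLF5 the first 4 places were the same genes in the same order. PARP3 went from place 9 to place 5, at 152 per kb, and PARG from place 5 to place 6, at 103 per kb. XRCC1 went from place 6 to place 10, at 90.1 per kb with an SD of 30.6, so its place was not separable from those of its neighbours.

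Ratios within a library do not depend on how libraries are scaled, so 6 pairs of genes were compared by an exact two-sided permutation test, which with 3 against 3 libraries cannot give a p below 0.1. PARG counts per kb were 0.204 of those of PARP1 in sh-NC and 0.143 in sh-KLF5, a difference of -0.51 in the log2 ratio (exact permutation p = 0.1, adjusted over 6 pairs 0.3). The 3 sh-NC ratios all lay above the 3 sh-KLF5 ratios, but only by a narrow margin. The log2 ratio was -2.48 in sh-NC library 3 and -2.53 in sh-KLF5 library 1. PARP3 was 0.116 of PARP1 in sh-NC and 0.209 in sh-KLF5, a log2 difference of 0.84 (exact permutation p = 0.1, adjusted 0.3), again with no overlap. The other 4 pairs overlapped. The log2 ratio differed by 0.21 for PARP2 to PARP1 (exact p = 0.3), by 0.036 for TNKS2 to TNKS (exact p = 0.9), by -0.18 for XRCC1 to LIG3 (exact p = 0.6) and by 0.26 for POLB to APEX1 (exact p = 0.6). With 1 library left out, the PARP2 to PARP1 difference ranged from 0.10 (without sh-KLF5 library 1) to 0.32 (without sh-KLF5 library 3), and that of TNKS2 to TNKS from -0.012 (without sh-NC library 3) to 0.10 (without sh-NC library 1). The XRCC1 to LIG3 difference ranged from -0.32 (without sh-KLF5 library 2) to 0.0084 (without sh-KLF5 library 1), and that of POLB to APEX1 from 0.00026 (without sh-KLF5 library 1) to 0.39 (without sh-KLF5 library 2).

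**Figure D4:**
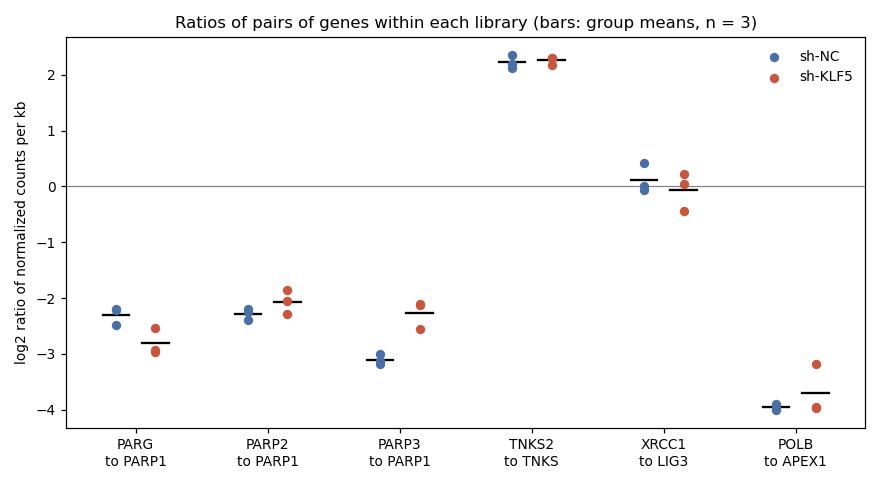
Within-library log2 ratio of counts per kb (y axis) for 6 gene pairs in sh-NC (blue) and sh-KLF5 (red), 1 point per library. The groups are separate for PARG to PARP1, by a narrow margin, and for PARP3 to PARP1, and overlap for the other 4 pairs.

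Around these genes, 7 lists of neighbouring steps held 60 genes, of which 58 had a row and 56 were tested. Of these, 9 passed (5 higher, 4 lower), or 16.1% beside 12.9% of all tested genes, and their median log2 fold change was -0.042. PARP15 and ADPRH had no row, and NMNAT3 and NHEJ1 had too few reads to be tested. Without sh-NC library 2 the count was 4, and without sh-NC library 3 it was also 4. With the replicate number as a block it was 14. Over all tested genes the count of 2038 became 1217, 1386 and 2675 in the same fits, in that order.

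Among 11 other members of the PARP family, 2 passed, both higher, beside 6.04% of all tested genes higher and 6.85% lower. TIPARP, a mono-ADP-ribosyltransferase induced by the aryl hydrocarbon receptor, had 1041, 1148 and 1226 normalized counts in sh-NC and 2486, 2059 and 2065 in sh-KLF5 (log2 fold change 0.95, SE 0.12, limma adjusted p = 4.96e-05). PARP10, another mono-ADP-ribosyltransferase, went from 479 ± 43.5 to 766.5 ± 89.5 (log2 fold change 0.67, limma adjusted p = 0.00221). The least changed was PARP16, at 0.0070. PARP9, PARP14 and ZC3HAV1 were lower in every sh-KLF5 library than in any sh-NC library, at -0.35, -0.25 and -0.19 (limma adjusted p = 0.0621, 0.161 and 0.288), and PARP8 was higher in the same way, at 0.35 (limma adjusted p = 0.120). Both genes that passed lay clear of their sh-NC values in every sh-KLF5 library. Groups were separate in this way for 31.3% of all tested genes.

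Of 8 cofactors, readers and erasers of ADP-ribose, only RNF146, a ubiquitin ligase that reads the polymer made by tankyrases, passed. That is 12.5% of the list, beside 12.9% of all tested genes. RNF146 went from 402 ± 46.4 to 567 ± 82.0 normalized counts (log2 fold change 0.49, limma adjusted p = 0.0317). This call was lost without sh-NC library 2 (limma adjusted p = 0.158), sh-NC library 3 (0.126) or sh-KLF5 library 2 (0.0882). The log2 fold changes in these fits were 0.44, 0.45 and 0.49. HPF1, the cofactor that directs PARP1 and PARP2 to serine, was at 0.0058 (limma adjusted p = 0.987). The strand-break reader APLF had the widest log2 fold change of the list, 0.65 (limma adjusted p = 0.108).

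Among 11 DNA glycosylases, UNG, which removes uracil from DNA, was the gene that passed (9.09%, beside 12.9% of all tested genes). It fell from 1311 ± 60.4 to 948 ± 99.8 normalized counts (log2 fold change -0.47, limma adjusted p = 0.0136). The call was lost without sh-NC library 2 (limma adjusted p = 0.0718) or sh-NC library 3 (0.0722), where the log2 fold changes were -0.47 and -0.44. NEIL2 was the least changed, at -0.013. None of 5 end-processing genes passed, beside 12.9% of all tested genes. Their log2 fold changes had a median size of 0.067, with the most changed, APEX2, at -0.091.

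Of 8 long-patch repair genes, 1 passed (12.5%, beside 12.9% of all tested genes). LIG1, the ligase of this branch and of replication, fell from 1485 ± 217 to 1016 ± 137 normalized counts (log2 fold change -0.55, limma adjusted p = 0.0145). It no longer passed without sh-NC library 2 (limma adjusted p = 0.0903) or sh-NC library 3 (0.1003), where the log2 fold changes were -0.51 and -0.46. The flap nuclease FEN1 was at -0.41 (limma adjusted p = 0.0506), the polymerase subunit POLD1 at -0.37 (limma adjusted p = 0.0511), POLD4 at 0.56 (limma adjusted p = 0.260) and RFC1 at -0.12. Of 6 end-joining genes none passed, beside 12.9% of all tested genes. LIG4 was at 0.34, PRKDC at -0.34 (limma adjusted p = 0.0917) and XRCC4 at -0.037.

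NAD+ is the substrate of ADP-ribosylation, and 4 of 7 tested NAD supply genes passed, 2 in each direction, beside 12.9% of all tested genes (6.04% higher and 6.85% lower). QPRT, described below, is among these 4 and was kept for testing through its sh-NC reads alone. Whether the list differs from other genes was not tested. NAMPT, the rate-limiting enzyme of the salvage route, went from 4003 ± 231 to 5687 ± 925 normalized counts (log2 fold change 0.50, limma adjusted p = 0.0155). The NAMPT call was lost without sh-NC library 2 (limma adjusted p = 0.0679) or sh-NC library 3 (0.0930), where the log2 fold changes were 0.51 and 0.45. NMNAT1, the nuclear NAD+ synthase, went from 175 ± 18.6 to 281 ± 23.7 (log2 fold change 0.68, limma adjusted p = 0.00737). Without sh-NC library 2 its log2 fold change was 0.62 (limma adjusted p = 0.0535). NMNAT2, the cytosolic relative of NMNAT1, fell from 49.2 ± 19.0 to 19.2 ± 7.17 (log2 fold change -1.32, limma adjusted p = 0.0260). It did not pass without sh-NC library 3 (limma adjusted p = 0.161) or sh-KLF5 library 3 (0.0796), where the log2 fold changes were -1.03 and -0.98.

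QPRT, which feeds NAD+ synthesis from tryptophan, had 201, 194 and 156 reads in sh-NC and 2, 3 and 3 in sh-KLF5 (limma adjusted p = 8.08e-09). It was kept for testing through its sh-NC reads alone and drops out where at least 10 reads are required in every library. Summed over libraries and scaled for depth, it was 68.4-fold lower, with an exact interval of 34.5 to 159 that covers counting error only. NADSYN1 was the least changed of the list, at 0.14. QPRT and NMNAT2 were the only genes of the 7 lists past 1 on the log2 scale as well.

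**Figure D5:**
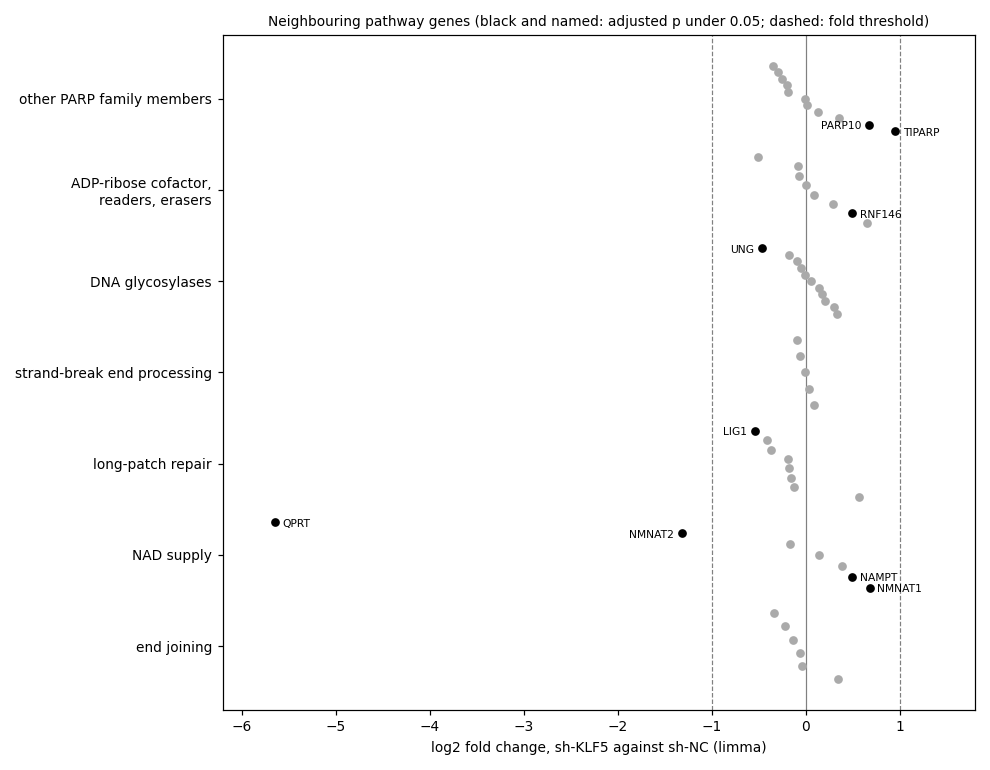
Log2 fold change (x axis, sh-KLF5 against sh-NC, limma) of the 56 tested genes of the 7 lists (y axis), 1 point per gene, with those at an adjusted p under 0.05 in black and named, and dashed lines at -1 and 1. The 9 named genes are spread over 5 lists, and QPRT and NMNAT2 lie beyond the dashed lines.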

How the data were processed

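Polyadenylated RNA of 6 SKOV3 libraries was sequenced. Per the labels, the authors' processing used HISAT2 2.0.5, featureCounts 1.5.0-p3 and DESeq2 1.20.0 on hg38; the strand setting and the rule for multi-mapping reads were not given in the sources used here. The deposited values are a signal: read counts per gene divided by 1 factor per library. Dividing by the smallest value above 0 gave whole reads for 100% of values (within 0.0001 of a read). In sh-KLF5 library 3 this step is so close to 1 (size factor 0.997) that a check of whole multiples says less there. The authors' group means and their own log2 fold changes and p-values were also deposited and were not used. Deposited gene lengths gave counts per kb. Gene coordinates were those of GENCODE 29, which matched 29180 of the 29185 genes, and promoter windows were from RefSeq (GRCh38.p14, 8 of 10 genes matched by symbol; TNKS and POLB were not).

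Genes were kept by filterByExpr (edgeR 4.0.16, minimum count 10) and tested with limma 3.58.1 (trend, robust) on log2(normalized count + 1), in R 4.3.3, with Benjamini-Hochberg adjustment over 15803 genes and a threshold of 0.05. Fold changes on this scale understate those of low genes. Ratios of pairs were tested by exact permutation, and the exact interval of QPRT was computed with SciPy 1.17.1. The fits were also run on simulated data with the same dispersion for every gene and no library set apart, unlike these data. The outcome is not reported here, and no result rests on it. Alternatives were edgeR's quasi-likelihood test and DESeq2 1.42.0 on recovered reads, TMM and library-size scaling, pseudocounts of 0.1 and 5, no filter, at least 10 reads in every library, a replicate block, unadjusted p-values, and the omission of 1 library at a time. PARG and PARGP1 were summed as an alternative chosen after seeing the data. Named were the 10 genes, KLF5, genes of the 7 lists that passed, the least and most changed of each list, overlapping genes and near copies, and the 3 genes closest to PARP1; FEN1, POLD1, PRKDC, PARP8, PARP9, PARP14 and ZC3HAV1 were named after their values were seen. Some genes covered by this rule are not reported here. The 10 genes and the lists were chosen with earlier results of these data known.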

Additional observations from a re-analysis of the deposited data

How the results depend on the processing

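PARG stayed lower and PARP3 higher, both at an adjusted p under 0.05 (with unadjusted p-values also), under every alternative run, and the number of the 10 genes that passed was 2 in each. PARG ranged from -0.65 to -0.56 and PARP3 from 0.70 to 0.72 over the other tools, scalings, pseudocounts, filters and the summed PARG and PARGP1 counts, and from -0.71 to -0.58 and 0.62 to 0.79 when each library was left out. The 7-list count of 9 was 14 with the replicate block and 18 with unadjusted p-values, and 4 to 12 when each library was left out. The replicate block left the count of 10-gene calls at 2 but raised the all-gene count from 2038 to 2675. Same-numbered libraries had correlations of 0.059, 0.033 and 0.050 once group means were removed. The labels do not say that the numbers pair cultures, so the main fit used no block, and whether they do was not settled. The all-gene count of 2038 was 4134 with unadjusted p-values and 1217 to 2786 when each library was left out. With 1 library left out, PARP1 ranged from -0.25 to -0.014, XRCC1 ranged from -0.48 to 0.044, LIG3 from -0.15 to 0.035, APEX1 from -0.12 to 0.089, the TNKS2 to TNKS log2 ratio difference from -0.012 to 0.10 and that of XRCC1 to LIG3 from -0.32 to 0.0084. PARGP1, at 0.0063, was -0.020 with edgeR, -0.022 with DESeq2 and -0.23 to 0.16 when each library was left out. The cause of these changes was not tested. With 3 libraries a group the exact tests cannot pass 0.05, and depth was similar across libraries.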
